A study of Mus musculus with 4 samples.

Results

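Acetylcholinesterase, its relatives and anchor, and the receptors for acetylcholine were followed in mouse prefrontal cortex, where a human acetylcholinesterase is overexpressed in one group. Members were chosen by name: probe sets with a single gene symbol that is Ache, Bche, Colq, Ly6h or Chat, or that begins with Chrm or Chrn. A probe set is the group of short probes on the array that reads 1 transcript. The rule found 17 probe sets of 14 genes among 12422 probe sets and 8251 named genes. Chat, which makes acetylcholine, had 0 probe sets with a single symbol, and Chrne and Chrng had more than 1 each. Control RNA came from the prefrontal cortex of female FVB/N mice. The transgenic RNA came from the same region of female mice overexpressing the human synaptic form of AChE. Each group had 2 arrays, and each array read RNA pooled from 4 mice. The strain of the transgenic mice, the promoter of the transgene and the ages are not given in the labels.

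Acetylcholine is released in the cortex by axons of basal forebrain neurons, and it supports attention and arousal. Acetylcholinesterase splits it in the synaptic cleft. Muscarinic receptors answer acetylcholine through G proteins, with M1 acting through Gq and M4 through Gi, while nicotinic receptors are ion channels built of subunits, some neuronal and some of muscle.

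Median intensity differed by at most 1.85% among the arrays. Log2 intensities correlated across probe sets at 0.982 and 0.983 within the groups and at 0.958 to 0.961 between them, and probe sets are not independent replicates. All pools are labelled female, but Xist, which female cells transcribe from the inactive X chromosome, read 29.3 and 21.1 in control and 178.5 and 228 in transgenic pools. The low Xist signal of both control pools goes against their label. No comparison can be made without them, since they are the whole control group. The Xist signal divides the pools exactly as the transgene does. In every comparison below, a difference of sex and one of the transgene therefore cannot be told apart. Nor can a difference of strain, since the strain of the transgenic mice is not given. Whether a group's pools hold different mice is not stated, and p-values then cover the spread between pools alone, which may be technical. In bulk tissue, fewer cells of a type and less RNA per cell cannot be told apart. Of all 7453 probe sets bright enough to test, 10% passed at an adjusted p of 0.05, 5.46% higher and 4.56% lower in the transgenic pools (limma with Benjamini-Hochberg adjustment over all tested probe sets).

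Among the members, Ache and Chrm1 were lower in the transgenic pools and passed the test, and Chrm4, too dim for that test, was lower on both transgenic arrays. Sequence just before a transcription start is shown for Ache and Chrm4, which read lower, as did other members whose sequence is not shown. It is the 250 bases before that start, from RefSeq on build GRCm38.p6, at chr5:137288004-137288253 (plus strand) for Ache and chr2:91921939-91922188 (plus strand) for Chrm4. The Ache gene as a whole begins at 137288247, so the last bases of its window lie inside the gene. Capitals mark GC boxes, the letters GGGCGG or their reverse complement CCGCCC.
Ache: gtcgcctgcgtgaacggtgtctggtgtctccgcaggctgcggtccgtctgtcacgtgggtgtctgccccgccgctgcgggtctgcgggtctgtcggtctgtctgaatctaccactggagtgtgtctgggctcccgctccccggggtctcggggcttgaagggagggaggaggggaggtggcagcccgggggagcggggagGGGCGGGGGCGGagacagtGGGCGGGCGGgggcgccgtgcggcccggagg
Chrm4: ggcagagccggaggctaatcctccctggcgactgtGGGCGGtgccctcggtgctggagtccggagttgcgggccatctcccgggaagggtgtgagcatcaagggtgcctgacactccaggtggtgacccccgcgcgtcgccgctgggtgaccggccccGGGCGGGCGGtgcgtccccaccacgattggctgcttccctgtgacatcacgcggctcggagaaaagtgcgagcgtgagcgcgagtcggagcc

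The Ache window held 4 GC boxes and the Chrm4 window 3, some of them overlapping, and both were rich in G and C (73.6% and 70.0%). The windows of Bche and Chrna7, whose transgenic readings also lay below the control readings, had 35.6% and 67.2% G and C. A GC box is common: 32.7% of 32841 RefSeq windows of this length held at least 1. The Egr motif GCGGGGGCG, searched on both strands, occurred 2 times before Ache, where it overlaps GC boxes, and 0 times before Chrm4, and 2.57% of all windows held it. The Egr motif also occurred 1 time before Chrna7, a member that did not pass. Windows were found for 9 of the 14 member genes, and 5 of the 9 held a GC box: Ache, Bche, Chrm4, Chrna7 and Chrnb1. Chrm1, Chrna6, Chrnd, Colq and Ly6h were not matched. The motif matches are a description of these letters only.

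Of the cholinesterases, the mouse acetylcholinesterase gene fell. Ache (104650_at) read 599.5 and 621.9 in control and 365.3 and 355.6 in transgenic pools. Both transgenic pools lay well below both control pools, and the pools of a group lay close together. The mean was 610.7 ± 15.8 in control and 360.4 ± 6.86 in transgenic cortex (SD, n = 2 pools per group), a 1.69-fold fall. The log2 change was -0.76 ± 0.14 SE, with a 95% interval from -1.07 to -0.45 and an adjusted p of 0.00768 (limma). The probe set is named for the mouse gene, and whether it reads the human transgene was not tested, so the value is no check of the transgene. With 1 array left out the log2 change ran from -0.79 to -0.73. The call was lost without either transgenic array and held without either control array, but such fits cannot be set beside each other.

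Butyrylcholinesterase (Bche, 94644_at), a second enzyme that splits acetylcholine, was dim. It read 23.5 and 34 in control and 19.5 and 12.8 in transgenic pools. Both transgenic values lay under the intensity floor of 19.675, the 25th percentile of all values, below which readings were given no order, so no fold is drawn from them. Colq (100389_at), the collagen tail that fixes AChE in the extracellular matrix of the neuromuscular junction, read 152.3 and 117.8 in control and 115 and 88.4 in transgenic pools. The transgenic values lay below the control values, but the pools of each group lay about as far apart as the group means. Colq did not pass (log2 change -0.41, 95% interval -0.96 to 0.14, adjusted p = 0.351, limma).

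**Figure D1:**
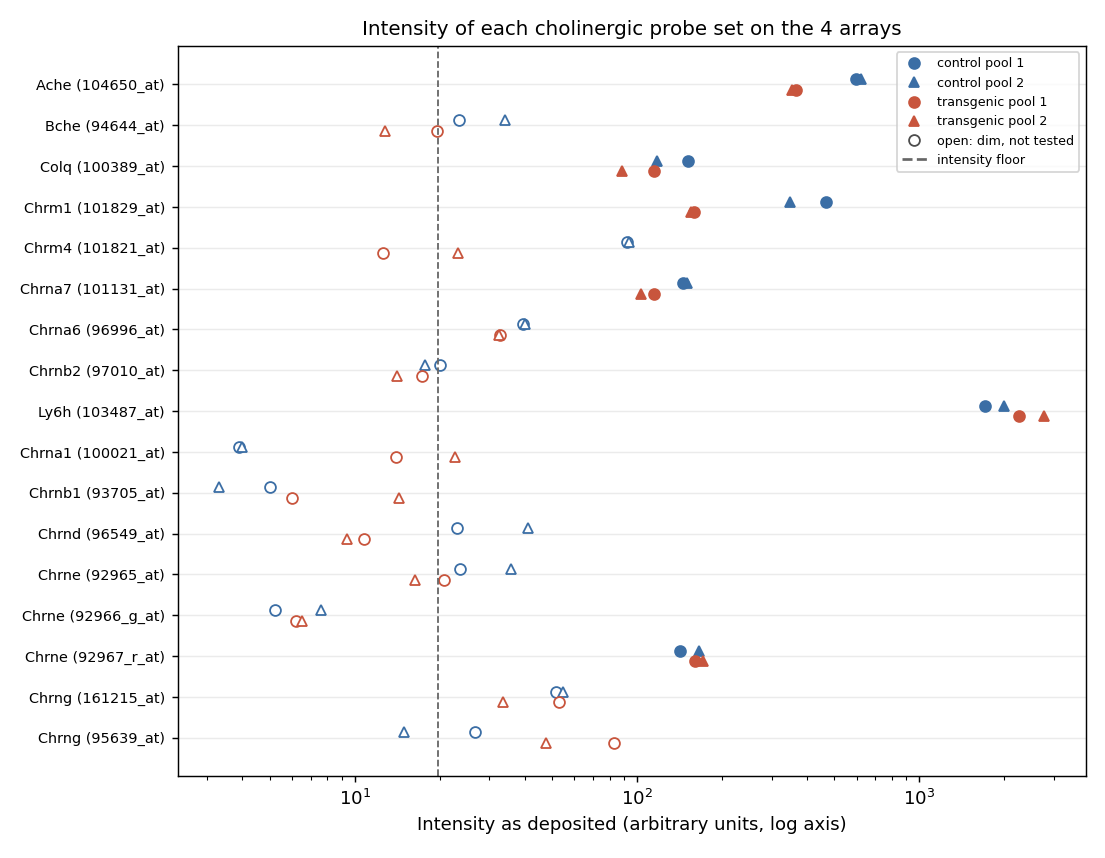
Each row is a probe set, and the log x axis gives its deposited intensity on the 2 control arrays (blue) and 2 transgenic arrays (red); open marks are probe sets too dim to test, and the dashed line is the floor of 19.675. The red marks of Ache, Chrm1 and Chrm4 lie clear to the left of the blue ones, and 9 of the 11 dim probe sets have at least 1 mark under the floor.

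The muscarinic receptors read by the array were M1 and M4. Chrm1 (101829_at), the M1 receptor of cortical projection neurons, read 466.3 and 349.6 in control and 158.9 and 155.3 in transgenic pools. The control pools differed from each other, yet the lower of them was still far above both transgenic pools. The mean fell from 408 ± 82.5 to 157.1 ± 2.55 (SD, n = 2 pools per group), and the fold taken from mean log2 values was 2.57. The log2 change was -1.36 ± 0.19 SE, with a 95% interval from -1.78 to -0.94 and an adjusted p of 0.00128 (limma). A log2 change of -1 or less was seen in 1.89% of tested probe sets. With 1 array left out the log2 change ran from -1.57 to -1.15, and the call was lost without transgenic replicate 2.

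Chrm4 (101821_at), the M4 receptor that lowers cyclic AMP, read 92.3 and 93.4 in control and 12.6 and 23.3 in transgenic pools. The control pools nearly coincided, and 1 of the 2 transgenic pools lay under the floor. The mean intensity was 92.8 ± 0.778 in control and 17.9 ± 7.57 in transgenic cortex (SD, n = 2 pools per group). The fall was 4.34-fold with values held at this floor, a size that depends on the floor chosen. The log2 change on floored values was -2.12, the lowest of the members. It was -0.87 with the floor at the 40th percentile and -1.70 with a pseudocount of 16 in place of a floor. Tests needed a mean log2 intensity above 5.63. Chrm4 (5.48) and 1 probe set of Chrng (161215_at, 5.56) stood just outside this limit, while Colq (6.86) was the dimmest member inside it. Chrm4 comes inside lower limits through its control readings alone (mean log2 6.54 in control and 4.42 in transgenic pools), so no p-value under such a limit is given. With no limit at all it did not pass (adjusted p = 0.0809, limma), and 0.113% of 12422 probe sets passed as lower.

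Neuronal nicotinic subunits gave no change that passed. Chrna7 (101131_at), the subunit of the fast alpha7 channel, read 145.9 and 149.9 in control and 114.8 and 103.6 in transgenic pools. The groups did not overlap and the pools of a group lay close together. The change did not pass (log2 change -0.44, 95% interval -0.90 to 0.02, adjusted p = 0.231, limma).

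Chrna6 (96996_at), a subunit best known from dopamine neurons, was dim and read 39.4 and 40.2 in control and 32.6 and 32.4 in transgenic pools. The groups did not overlap, with a log2 change of -0.29 on untested values. Chrnb2 (97010_at), the beta subunit of the main high-affinity nicotinic receptor of brain, read 20 and 17.8 in control and 17.3 and 14.1 in transgenic pools. Of its 4 readings 3 lay under the floor, so the groups have no order at this probe set.

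Ly6h, a membrane protein of the Ly6 family that limits nicotinic receptor surface levels, ran the other way. Its probe set (103487_at) read 1716.2 and 2005.9 in control and 2262 and 2775.1 in transgenic pools. Both transgenic pools were higher than both control pools, with wide spread inside each group. The mean was 1861 ± 205 in control and 2519 ± 363 in transgenic cortex (SD, n = 2 pools per group), with a log2 change of 0.43 ± 0.14 SE. The unadjusted 95% interval from 0.13 to 0.74 lay above 0, but the adjusted p of 0.0798 missed the threshold (limma). The log2 change was 0.32 without control replicate 1 and 0.55 without control replicate 2. It was 0.58 without transgenic replicate 1 and 0.29 without transgenic replicate 2.

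**Figure D2:**
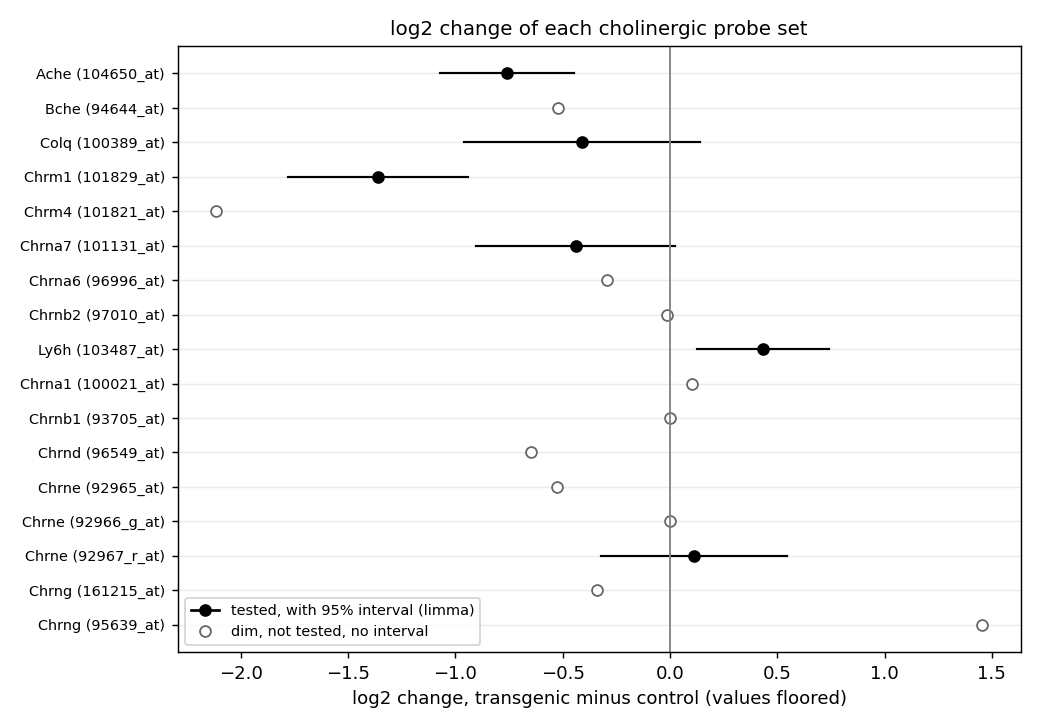
Each row is a probe set, and the x axis gives its log2 change, transgenic minus control, on floored values; filled points with bars are tested probe sets with the unadjusted 95% interval, and open points are dim probe sets without a test. The intervals of Ache and Chrm1 lie below 0 and that of Ly6h above it, and Chrm4 is the leftmost point.

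The muscle-type nicotinic subunits, which form the receptor of the neuromuscular junction, were read by 8 probe sets, and Chrne at 92967_r_at was the one bright enough to test. The alpha1 subunit Chrna1 (100021_at) read 3.9 and 4 in control and 14 and 22.7 in transgenic pools, with 3 of the 4 readings under the floor. The beta1 subunit Chrnb1 (93705_at) read 5 and 3.3 against 6 and 14.4, all 4 under the floor. The delta subunit Chrnd (96549_at) read 23.1 and 41.2 in control and 10.8 and 9.4 in transgenic pools, the latter both under the floor. These readings are too low to order the groups for Chrna1 and Chrnb1, and for Chrnd the control pools alone gave values above the floor.

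The epsilon subunit of adult muscle, Chrne, had 3 probe sets. The 92967_r_at probe set read 142 and 166.5 in control and 160.6 and 172 in transgenic pools, and the groups overlapped (log2 change 0.11, 95% interval -0.32 to 0.55, adjusted p = 0.778, limma). The 92966_g_at probe set read 5.2 and 7.6 against 6.2 and 6.5, all under the floor. The 92965_at probe set read 23.7 and 35.9 in control and 20.8 and 16.3 in transgenic pools. The tested probe set thus did not show the lower transgenic readings of 92965_at, which was too dim to test and whose control pools differed by about as much as the groups.

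The gamma subunit of embryonic muscle, Chrng, gave unlike readings at its 2 probe sets. At 95639_at it read 26.7 and 15 in control and 82.6 and 47.8 in transgenic pools, both transgenic values above both control values. At 161215_at it read 51.8 and 54.5 against 52.9 and 33.4, and the groups overlapped. The log2 changes on floored values were 1.45 and -0.34. For 95639_at, 1 control reading lay under the floor, and the log2 change was 0.35 with the floor at the 40th percentile. Of 10 skeletal muscle markers 7 were tested, and 0 passed in either direction, the smallest p-values being those of Casq1 (log2 change -0.57, adjusted p = 0.102) and Actn3 (-0.81, adjusted p = 0.165, both limma). Their summed intensity was 735.3 and 788.9 in control and 685.8 and 670.6 in transgenic pools. The muscle actin Acta1 (100381_at) read 140.2 and 150.4 in control and 176.9 and 194.4 in transgenic pools, which did not overlap and did not pass (log2 change 0.35, adjusted p = 0.291, limma), while the fast-fibre troponin Tnni2 read at most 4.2 on every array.

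Over the members as a whole, 6 of 17 probe sets were bright enough to test. Of these 6, 2 passed as lower (Ache and Chrm1), 0 passed as higher and 4 did not pass, beside 4.56% lower and 5.46% higher among all tested probe sets. The transgenic arrays lay below both control arrays at 4 of the 6 and above them at 1, beside 29.9% and 23.8% of all tested probe sets. On the deposited intensities, both transgenic arrays lay below both control arrays at 10 of the 17 probe sets, above them at 4 and overlapped at 3. Over all 12422 probe sets the transgenic arrays lay below at 28.2% and above at 19.5%. At 9 of the 11 dim members at least 1 reading was under the floor, so the count over 17 includes orders among values that carry none. The probe sets whose pattern over the 4 arrays was closest to that of Ache were those of Sec14l1, Elof1 and B4galnt1, at a root mean square distance of 0.00902, 0.0318 and 0.0326 log2 units after centring. For Chrm1 they were those of Zfp692, Tnni1 and Dcun1d2, at 0.0688, 0.0755 and 0.0960. With 4 arrays such likeness is a description only.

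**Figure D3:**
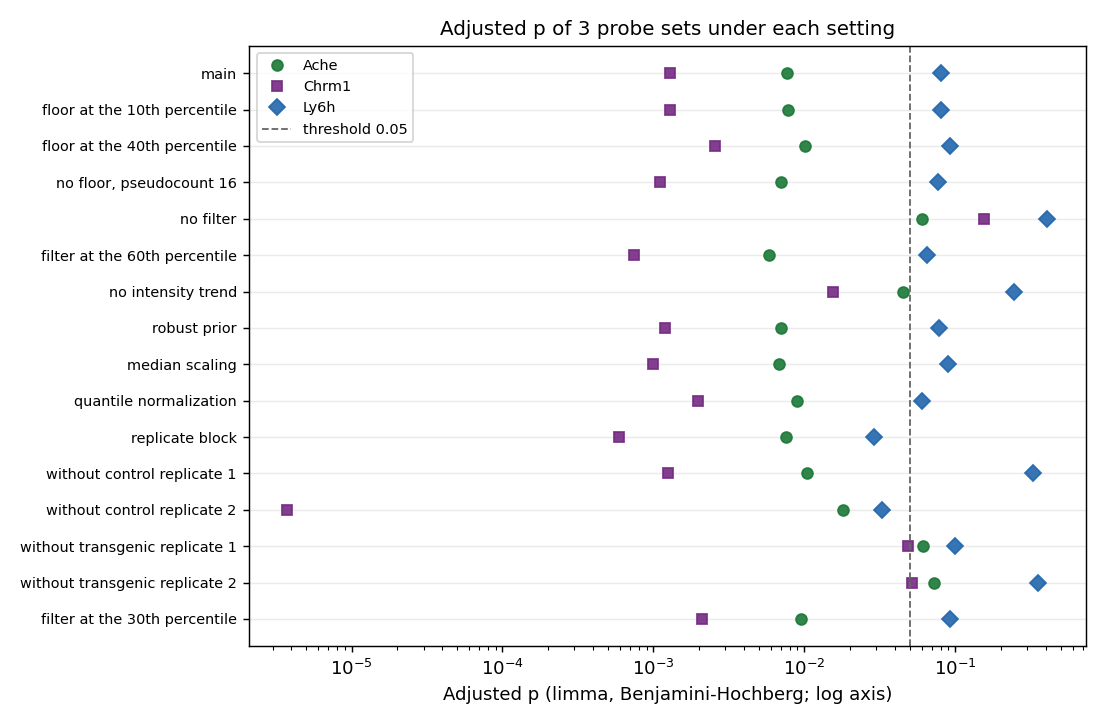
Each row is a setting of the analysis, and the log x axis gives the adjusted p of Ache, Chrm1 and Ly6h under it (limma, Benjamini-Hochberg); the dashed line is the threshold of 0.05. Rows without a transgenic array cannot be set beside rows without a control array, since their prior degrees of freedom differ. Ache and Chrm1 both lie right of the line without the limit on dim probe sets and without transgenic replicate 2, and Ache also without transgenic replicate 1.

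The other genes of acetylcholine supply showed no change that passed. Of 14 listed genes 8 were on the array and 6 tested, with 0 rises, 0 falls and a median log2 change of -0.11. Over 5701 tested genes the median was -0.04, and 5% rose and 4.49% fell. Slc18a3, which loads acetylcholine into vesicles, read 6.1 and 5.1 in control and 4.4 and 4.7 in transgenic pools, all under the floor. The choline transporter-like gene Slc44a4 showed a log2 change of -0.37 (adjusted p = 0.215) and Pcyt1a, an enzyme of phosphatidylcholine synthesis, 0.44 (adjusted p = 0.329, both limma). Markers of the basal forebrain neurons themselves were near or under the floor. Of 8 listed, Isl1, Lhx8, Slc18a3 and Zic4 were on the array, 0 were bright enough to test, and the highest reading was 25.1, of Lhx8 in a control pool.

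Among anchors and clustering proteins of the cholinergic synapse 4 of 9 listed genes were tested, and 1 fell, beside 4.49% of all tested genes, with a list median of -0.24. Agrin (Agrn), which organises receptor clusters at the neuromuscular junction, fell at both of its probe sets. At 97921_at it read 1235.3 and 1029 in control and 787.6 and 717 in transgenic pools (log2 change -0.59 ± 0.14 SE, adjusted p = 0.0280, limma). At 104763_at it read 682.8 and 674.5 against 472.7 and 460.2 (log2 change -0.54 ± 0.13 SE, adjusted p = 0.0324, limma). At each probe set the transgenic readings lay below the control readings. With 1 array left out the log2 change ran from -0.72 to -0.45 at 97921_at and from -0.56 to -0.52 at 104763_at. The call at 97921_at was lost in some of these fits, and the call at 104763_at in each of them.

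Of 14 genes for assembly and modulation of nicotinic receptors 6 were tested, Ly6h among them, and 2 fell, beside 4.49% of all tested genes, with a list median of -0.18. Ly6e (101487_f_at), of the same family as Ly6h, read 4832.7 and 4540.4 in control and 3621.8 and 3271.6 in transgenic pools (log2 change -0.44 ± 0.11 SE, adjusted p = 0.0280, limma). Vsnl1 (92995_at), a calcium sensor that raises surface levels of nicotinic receptors, read 6082.3 and 5225.6 against 3775.6 and 4399 (log2 change -0.47 ± 0.12 SE, adjusted p = 0.0374, limma). The groups did not overlap at either probe set. The other probe set of Ly6e (101488_r_at), too dim to test, ran the other way, from 21.1 and 17.3 in control to 26.5 and 27.4 in transgenic pools, with 1 reading under the floor. With 1 array left out the log2 change ran from -0.52 to -0.37 for Ly6e and from -0.58 to -0.36 for Vsnl1. Each of these calls was lost in some of these fits. Without the intensity trend neither passed (adjusted p = 0.179 and 0.198, limma), and nor did either probe set of Agrn (0.129 and 0.111). With quantile normalization Vsnl1 did not pass (log2 change -0.39, adjusted p = 0.100, limma).

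Signalling below the muscarinic receptors was read through 2 lists. Of 13 genes of the Gq route, which M1 uses, 5 were tested at their brightest probe set, with 0 rises, 0 falls and a median log2 change of -0.12. Gna11, a Gq-class alpha subunit, had -0.12 there (103411_at, adjusted p = 0.732) but rose at 102196_at, from 97.6 and 111.8 to 588.9 and 553.7 (log2 change 2.45 ± 0.17 SE, adjusted p = 1.27e-05, limma). The 2 probe sets of the gene therefore gave unlike answers. Rgs4, which shortens Gq and Gi signals, read 177.8 and 138.4 in control and 42.9 and 161.8 in transgenic pools, and the groups overlapped (log2 change -0.91, adjusted p = 0.302, limma). Rgs2, of the same family, had 0.27 (adjusted p = 0.420, limma).

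Of 14 genes of the Gi route, which M4 uses, 9 were tested, with 1 rise, 0 falls and a median log2 change of 0.04, where 5% of all tested genes rose. Gnaz (100386_at), an alpha subunit of the Gi family, rose from 69.5 and 124.5 to 221.2 and 219.3 (log2 change 1.24 ± 0.27 SE, adjusted p = 0.0193, limma). Without transgenic replicate 1 or 2 its adjusted p was 0.165 and 0.187, and it was 0.0787 without the intensity trend. Gnao1, an abundant G protein alpha subunit of brain, had 0.04 at its brightest probe set (103843_at, adjusted p = 0.872) and fell at 100388_at (log2 change -1.18 ± 0.29 SE, adjusted p = 0.0309, limma). Adcy6 (102321_at), an adenylyl cyclase and named here after its values were seen, read 304.6 and 341.5 in control and 226.7 and 199.1 in transgenic pools and narrowly missed the threshold (log2 change -0.60, adjusted p = 0.0527, limma). The log2 change of Gnao1 at 100388_at ran from -1.57 to -0.79 with 1 array left out, and its call was lost in some of these fits.

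**Figure D4:**
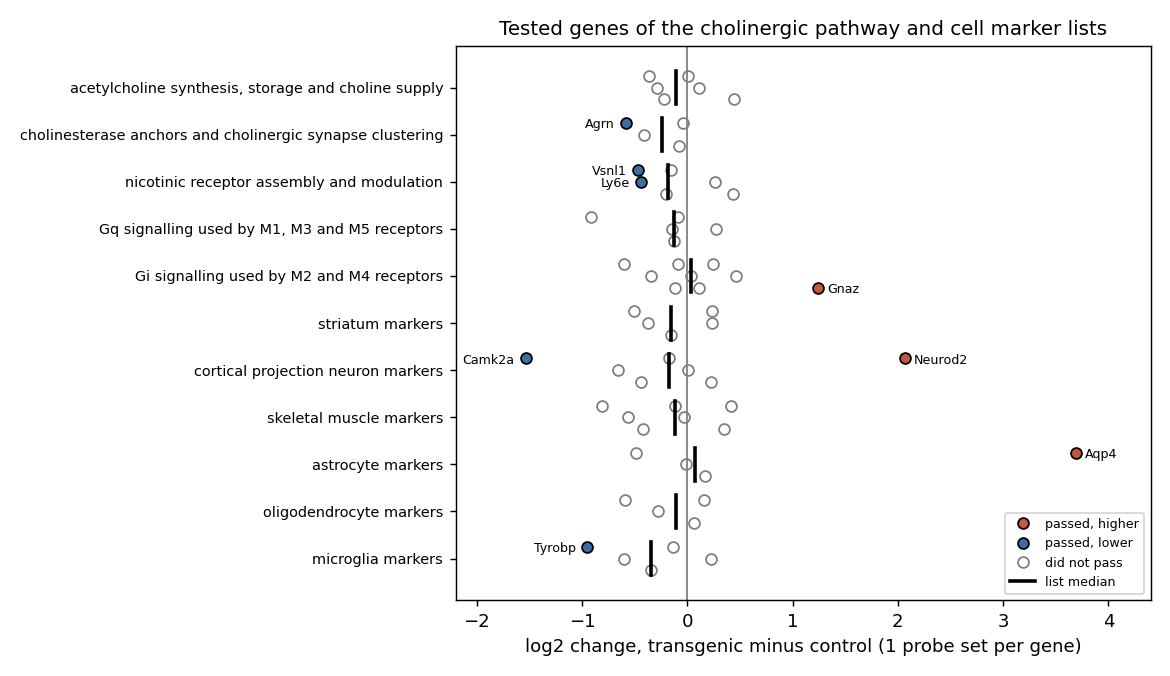
Each row is a list of genes, and the x axis gives the log2 change, transgenic minus control, of each tested member at its brightest probe set; filled points passed the test, open points did not, and the thick bar is the list's median. Agrn, Ly6e and Vsnl1 are the points that passed as lower among the pathway lists and Gnaz the one that passed as higher, while list medians lie between -0.34 and 0.08.

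Markers of cells that carry these receptors, or that border the cortex, were set beside them. The striatum, which lies under the cortex, is rich in M4. Of 15 striatum markers 5 were tested and 0 passed, with a median log2 change of -0.15. Pde1b, a phosphodiesterase, had -0.50 (adjusted p = 0.122) and the dopamine receptor Drd2 -0.38 (adjusted p = 0.548, both limma). Their summed intensity was 3696 and 6258 in control and 5706 and 3926 in transgenic pools, so the groups overlapped. Penk (94516_f_at), the enkephalin precursor, was the largest single part of these sums. It read 1779.1 and 3621.9 in control and 3710.4 and 2395.2 in transgenic pools. Pde1b read 1411.9 and 1831.6 against 1345.1 and 956.4, without overlap, while the other tested markers overlapped at their brightest probe sets. Tac1, the substance P precursor, read 157.8 and 471.9 against 342.2 and 302.4, while Rgs9, a regulator of G protein signals, was under the floor on every array. The part of striatal RNA in the values of Chrm4 was not tested.

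Of 12 markers of cortical projection neurons, which carry M1, 7 were tested, and 1 rose and 1 fell, beside 5% and 4.49% of all tested genes. Camk2a (93660_at), their calcium-dependent kinase, fell from 136.6 and 121 to 31.2 and 62.9 (log2 change -1.54 ± 0.35 SE, adjusted p = 0.0241, limma), and without transgenic replicate 1 it had -1.03 and an adjusted p of 0.101. It was bright enough to test through its control readings. Neurod2 (98808_at), a transcription factor of these neurons, rose from 167.2 and 132.1 to 621.3 and 626.3 (log2 change 2.07 ± 0.17 SE, adjusted p = 4.00e-05, limma). The median of the list was -0.18, and its summed intensity was 4951 and 5219 in control and 4855 and 4536 in transgenic pools. The part of neuron content in the values of Chrm1 and Chrm4 was not tested.

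Glial markers moved at single genes, where 5% of all tested genes rose and 4.49% fell. Of 4 tested astrocyte markers the water channel Aqp4 rose (102704_at, log2 change 3.69, adjusted p = 1.49e-05, limma), bright enough to test through its transgenic readings, and the list's median was 0.08, with summed intensities of 2622 and 2746 in control and 3085 and 3528 in transgenic pools. Of 5 tested microglia markers the adaptor Tyrobp fell (100397_at, log2 change -0.95, adjusted p = 0.0127, limma), with a list median of -0.34 and sums of 2112 and 2054 against 1840 and 1615. Without transgenic replicate 1 or 2 the adjusted p of Tyrobp was 0.0540 and 0.112. Of 4 tested oligodendrocyte markers 0 passed at the brightest probe set, with a median of -0.11 and sums of 3154 and 3802 against 2853 and 3208. Mag had -0.59 (adjusted p = 0.169) and Mbp -0.28 (adjusted p = 0.302), while Mobp, a myelin protein, had 0.06 at its brightest probe set and fell at 99047_at (log2 change -1.02, adjusted p = 0.00955, limma). Without transgenic replicate 1 or 2 that adjusted p was 0.120 and 0.0555. The other tested probe sets of Mobp had log2 changes of -0.85 (99048_g_at, adjusted p = 0.0650) and -0.65 (99046_at, adjusted p = 0.231, both limma). The part of glial RNA in the values of Ache, Chrm1 and Chrm4 was not tested.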

How the data were processed

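RNA of 4 pools was read on single-channel expression arrays, and groups and replicate numbers came from the sample titles. The deposited values are linear intensities, a unit read from the values since no header or label names it. No source used here gives the method by which the authors derived them, and detection calls were not used. The arrays had been brought to a common level before deposit (means of 249.5 to 249.6 between the 2nd and 98th percentiles), so no normalization was added.

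Of 12488 probe sets, 66 controls were left out. Platform symbols were updated through gene identifiers to RefSeq (GRCm38.p6). Values were floored at the 25th percentile (19.675) and log2-transformed, and probe sets with a mean log2 value above the 40th percentile (5.63) were tested. Differences are transgenic minus control from limma 3.58.1 in R 4.3.3 (lmFit, eBayes with an intensity trend, two-sided, Benjamini-Hochberg over all tested probe sets, threshold 0.05), with 2 residual and 7.51 prior degrees of freedom. The scripts were tested on simulated data. The number of arrays limits the precision (median SE 0.188). Lists use the brightest tested probe set per gene and no set test. Every member was named, with the list members that passed, or otherwise the 2 of smallest p, and the 3 genes nearest in pattern to Ache and Chrm1. Some further list genes, such as Acta1, Tnni2, Penk, Tac1, Rgs9 and Slc18a3, were named outside this rule. Members and lists were chosen with earlier results of these data known. Alternatives varied the floor, the limit on dim probe sets, the variance prior, the scaling, a replicate block and each array left out.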

Additional observations from a re-analysis of the deposited data

How the results depend on the processing

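Of the alternatives run, 4 moved the count of 747 probe sets that passed by over 1.5 times: 48 passed without the limit on dim probe sets, 395 without the intensity trend, and 303 to 749 with 1 array left out (303 and 313 without transgenic replicate 1 or 2). The 2 members that passed became 0 without that limit, where the prior degrees of freedom were 0.748 in place of 7.51 and Ache and Chrm1 had adjusted p-values of 0.0599 and 0.155 (limma); 1913 of 12422 probe sets had an unadjusted p under 0.05 there. With 1 array left out the count of members ran from 0 to 3, namely 1 without transgenic replicate 1 (Chrm1), 0 without transgenic replicate 2 (1433 probe sets with an unadjusted p under 0.05) and 3 without control replicate 2. In such fits the lone array is assumed to vary like the other group. Their prior degrees of freedom were 3.97 and 3.93 without transgenic replicate 1 or 2, and 58.6 and 57 without control replicate 1 or 2. The p-values with a transgenic array left out therefore cannot be set beside those with a control array left out. In the other settings run Ache and Chrm1 kept passing. The log2 change of Chrne at 92967_r_at ran from 0.00 (just below 0) without control replicate 1 to 0.23 without control replicate 2. The sign of every other tested member held in every setting, with log2 changes of -0.79 to -0.73 for Ache, -1.57 to -1.15 for Chrm1, -0.51 to -0.37 for Chrna7, -0.60 to -0.22 for Colq and 0.29 to 0.58 for Ly6h. The replicate numbers do not pair the pools by any label, and the deviations of same-numbered pools correlated at 0.056. With the replicate number as a block 892 probe sets passed, and of the members 3, Ly6h joining at an adjusted p of 0.0288. The log2 changes of the 11 dim members moved by more than the spread between pools in 22 of 165 cases, 20 of them with another floor or a pseudocount. Of the 13 probe sets of pathway and marker genes that passed, all 13 missed the threshold without the limit on dim probe sets and 8 without the intensity trend. At 9 of the 11 dim members a reading lay under the floor, where the array gives no order. With a limit at the 30th percentile, chosen after seeing the data, 713 probe sets passed.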
